A study of Mus musculus with 4 samples.

Results

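The 92 genes described here are the protein-coding genes of mouse chromosome 7 whose symbol starts with Zfp followed by a digit, out of 21938 protein-coding genes in all and 2023 on that chromosome. Of 95 such symbols, Zfp264, Zfp419 and Zfp939 were not annotated as protein-coding and were left out. ChIP-seq, the sequencing of DNA pulled down with an antibody to CTCF, was performed on hearts of adult female B6CASTF1/J mice aged 2 months, which are first-generation hybrids between the strains C57BL/6J and CAST/EiJ. Pool G (biological replicate 2) and pool H (biological replicate 1) each joined 2 heart biosamples and were sequenced as 2 technical libraries. All groups share this genotype, tissue and antibody, and no treatment, other tissue or other condition was part of the series. The peak lists give no read totals, so the depth behind each value is unknown.

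C2H2 zinc finger genes are the largest family of transcription factor genes in mammals and lie in tandem clusters that grew by gene duplication. Each finger is a short loop held by a zinc ion between a pair of cysteines and a pair of histidines, and a row of fingers reads a row of bases. Many members also carry a KRAB box, which recruits the co-repressor TRIM28 and, through it, enzymes that lay down H3K9 methylation. CTCF is itself a protein with a row of C2H2 fingers and marks the boundaries of chromatin loops.

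The name of the family was checked against the coding sequences. A C2H2 pattern was found in 91 of the 92 genes, with a median of 11.5 patterns per gene and a maximum of 33 in Zfp619. The exception is Zfp36, which encodes tristetraprolin, an mRNA-decay factor with fingers of another type. Of 1096 patterns in all, 986 (90.0%) lay in the last exon of the transcript with the longest coding sequence, and in 80 genes every pattern did. A KRAB A box pattern was found in 55 genes. This was a single written pattern, searched in the longest coding sequence only, so a gene without it may still encode a KRAB box.

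A summit is the highest point of a peak in the authors' conservative list for both pools, which holds 54309 peaks. The core is the 12-base centre of the CTCF motif, searched on both strands within 100 bp of each summit with up to 1 mismatch. The sequences below are the cores that the results turn on, read from the reference genome (GRCm38.p6, the mm10 build), 5′ to 3′ on the strand of the core. Capitals mark the core and lower case the 9 bases on either side. The opening set shows strong summits at promoters, in introns and in last exons, and lies at chr7:39517913-39517942 (minus strand), chr7:29954918-29954947 (plus), chr7:110083959-110083988 (minus), chr7:80084599-80084628 (minus), chr7:6191574-6191603 (minus) and chr7:25082680-25082709 (plus).
Zfp619 promoter: aaggaggctCCACCAGACGGCctcccgggg
Zfp74 promoter: acagagagaCCAGAAGGGGGCatccgattc
Zfp143 intron: caaaagccaCCACTAGATGGCaccaaacag
Zfp710 intron: gccacataaCCACCAGGGGGCgccattcaa
Zfp444 last exon: cagccctcaCCACCAGAGGGCagcactgcc
Zfp574 last exon: tgtgtcttgCCACTAGAGGTCcccaaagcc

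A further set shows one 12-base word that recurred at many of these genes in soft-masked sequence, the lower-case letters by which the genome file marks repeats. These sites lie at chr7:30091430-30091459 (minus), chr7:6174556-6174585 (minus), chr7:127252593-127252622 (plus), chr7:6381625-6381654 (minus) and chr7:39528910-39528939 (plus).
Zfp566 promoter: atctgtaggCCAGAAGAGGGCatcatatcc
Zfp444 promoter: tcagatgcaCCAGAAGAGGGCatcagatcc
Zfp771 intron: gcctgcaggCCAGAAGAGGGCagcagatgt
Zfp78 last exon: atccgctttCCAGAAGAGGGCatcagatcc
Zfp619 intron: cagtagctgCCAGAAGAGGGCatcagattt

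The last set lies inside the coding sequence of the fingers themselves, where no summit was found at any copy of the core. These copies lie at chr7:24141552-24141581 (plus), chr7:24181946-24181975 (plus), chr7:24198650-24198679 (minus), chr7:24261620-24261649 (plus) and chr7:24291553-24291582 (minus), each on the coding strand of its gene.
Zfp235 fingers: cttccaaagCCACCAGAGGGTccatacagg
Zfp114 fingers: tctcgtctaCCACCAGAGGGTccacagtgc
Zfp111 fingers: cctccatgcCCACCAGAGGGTgcacactgg
Zfp108 fingers: cctccaggaCCACGAGAGGGTacacacagg
Zfp61 fingers: cctgcggtcCCACCAGAGGGTccacacggg

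CTCF summits were found at the promoters of about as large a share of these genes as of all genes, and in their gene bodies at a smaller share. A summit lay no more than 1 kb from a transcription start site (TSS) in 33 of the 92 genes (35.9%, 95% exact Clopper-Pearson interval 26.1 to 46.5%), beside 34.6% of all protein-coding genes. The share was 36.1% of the 302 Zfp genes on other chromosomes (30.7 to 41.8%) and 28.1% of the other 1931 protein-coding genes on chromosome 7. Of those 1931, 398 are olfactory (Olfr) and vomeronasal (Vmn) receptor genes, of which 1.01% had a promoter summit. These intervals cover counting error over genes only, and neighbouring genes that share a cluster are not independent.

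Gene bodies, counted beyond 1 kb of the gene's own TSSs, held a summit in 20 of the 92 genes (21.7%, 13.8 to 31.6%), beside 41.2% of all protein-coding genes. The share was 24.8% of Zfp genes elsewhere (20.1 to 30.1%) and 30.5% of the other genes on chromosome 7. The median length of the genes was 13430.5 bp, against 17425 bp over all genes, 19851.5 bp for Zfp genes elsewhere and 11012 bp for the other genes on chromosome 7. The mean length was 19.2 kb, against 49.0 kb over all genes, 36.4 kb for Zfp genes elsewhere and 32.5 kb for the other genes on chromosome 7. Per 100 kb of gene length there were 1.64 summits of this kind in these genes, 1.72 in Zfp genes elsewhere, 2.30 in all genes and 2.48 in the other genes on chromosome 7. The rate was lower in both sets of Zfp genes than in all genes, a difference that was not tested. In the 92 genes it rests on 29 summits and carries no interval. Gene length here includes the sequence within 1 kb of a TSS, whose summits were not counted, and this weighs more in short genes.

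Last exons, where the fingers are encoded, held a summit in 5 genes (5.43%, 1.79 to 12.2%), beside 6.6% of all protein-coding genes and 2.98% of Zfp genes elsewhere. The last exons of these genes are long, with a median of 3056.5 bp against 1414 bp over all genes. Per 100 kb of last exon the genes had 2.02 summits and all genes had 3.68. Taking promoter and body together, 22 genes had promoter summits only, 11 had both, 9 had body summits only and 50 had none. A summit in either place was thus found in 42 genes (45.7%, 35.2 to 56.4%), beside 56.5% of all protein-coding genes. The share was 49.0% of Zfp genes elsewhere and 45.0% of the other genes on chromosome 7.

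**Figure D1:**
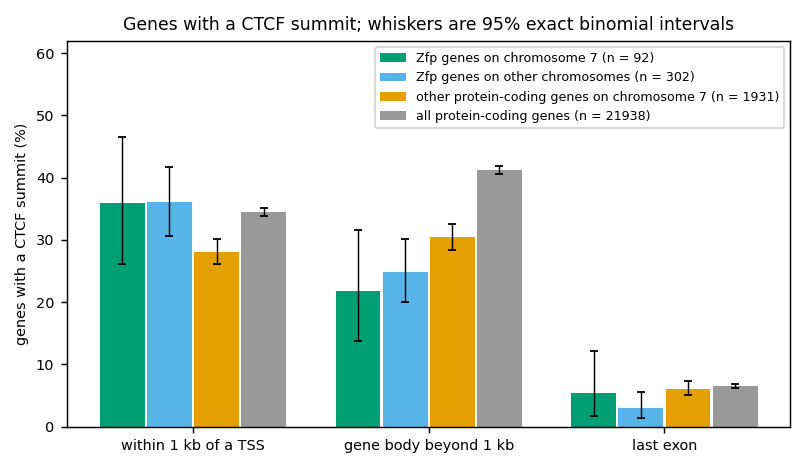
Percent of genes with a CTCF summit (y axis) within 1 kb of a TSS, in the gene body beyond 1 kb of the gene's own TSSs, and in a last exon, for Zfp genes on chromosome 7 and 3 other gene sets. Whiskers are 95% exact binomial intervals. At promoters the interval of the 92 genes (26.1 to 46.5%) holds the share of all genes, and in gene bodies it (13.8 to 31.6%) lies below it.

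Absence of a peak has a limit in this family. Tandem copies of zinc finger genes share long stretches of near-identical sequence, and no track of where reads can be placed was used, so a site without a peak cannot be told apart from a site where reads could not be placed uniquely. Whole heart tissue also mixes cell types, and binding in few cells cannot be told apart from weak binding in many.

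The promoter summits ran from 62.4 to 721.0 in signal, the peak caller's value in the authors' list. Among genes with a promoter summit, the median of the strongest was 264.9 (quartiles 121.8 and 461.1), against 300.6 over all genes with a promoter summit and 270.3 for Zfp genes elsewhere. In 14 of the 33 genes (42.4%) the strongest promoter summit reached the median of the whole list, 285.9, compared with 51.7% of all genes with one. The pools differed in scale: the median was 148.8 in pool G and 108.8 in pool H. The list keeps peaks that were reproducible between the pools, so their likeness at these summits is in part a result of that selection. Pool G was higher at 32 of the 33 genes, with a median ratio of G to H of 1.27 against 1.23 over the whole list. The ratio ran from 0.929 at Zfp592 to 1.79 at Zfp143, and the 5th to 95th percentiles of the list were 1.02 and 1.69.

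Zfp764 had the strongest promoter summit, 721.0, with 386.8 in pool G and 335.9 in pool H, and its summit lay on an annotated TSS. Zfp568 followed with 687.3 (372.6 in pool G, 319.5 in pool H). Zfp568 encodes a KRAB repressor known to silence a placental transcript of Igf2. Zfp619, the gene with the most fingers, had 680.6 (371.8 and 315.9 in pools G and H), and Zfp788 had 647.5 (345.4 and 306.3). These 4 genes stood above the rest in each pool, and all 4 carried the KRAB pattern.

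Next came Zfp74 with 570.6 (316.8 in pool G, 248.9 in pool H) and Zfp444 with 511.2 (278.5 and 238.8). Zfp536, which encodes a repressor of neuronal differentiation, had 482.8 (247.1 in pool G, 235.1 in pool H). Below it were Zfp747 with 468.3 (266.2 and 203.6), Zfp607b with 461.1 (253.4 and 209.4) and Zfp566 with 453.2 (246.6 and 206.0). The order of Zfp536, Zfp747, Zfp607b and Zfp566 differed between the pools: pool G placed Zfp747 and Zfp607b above Zfp536, and pool H placed Zfp607b and Zfp566 above Zfp747.

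Taking the strongest promoter summit of each gene, the lowest was at Zfp27 (76.1, with 42.3 in pool G and 32.3 in pool H). Above it came Zfp28 (84.6, with 44.4 and 37.8) and Zfp553 (88.6, with 52.2 and 42.6). Zfp526 (90.2, with 50.7 and 38.5) and Zfp143 (94.7, with 59.9 and 33.5) were next. Zfp143 encodes an activator that binds many promoters. Its pool values were the most unequal of the 33 promoters. The summit at Zfp526 lay within 1 kb of a TSS of Dedd2, and that at Zfp553 within 1 kb of a TSS of Sept1, so these 2 cannot be assigned to one gene. These are protein-coding neighbours. With genes of every type counted, 8 of the 42 promoter summits lay within 1 kb of another gene's TSS, among them that of Zfp143. Zfp260, known as a partner of GATA4 in heart muscle cells, had a promoter summit of 177.0, with 99.1 in pool G and 83.3 in pool H, below the median of the 33.

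**Figure D2:**
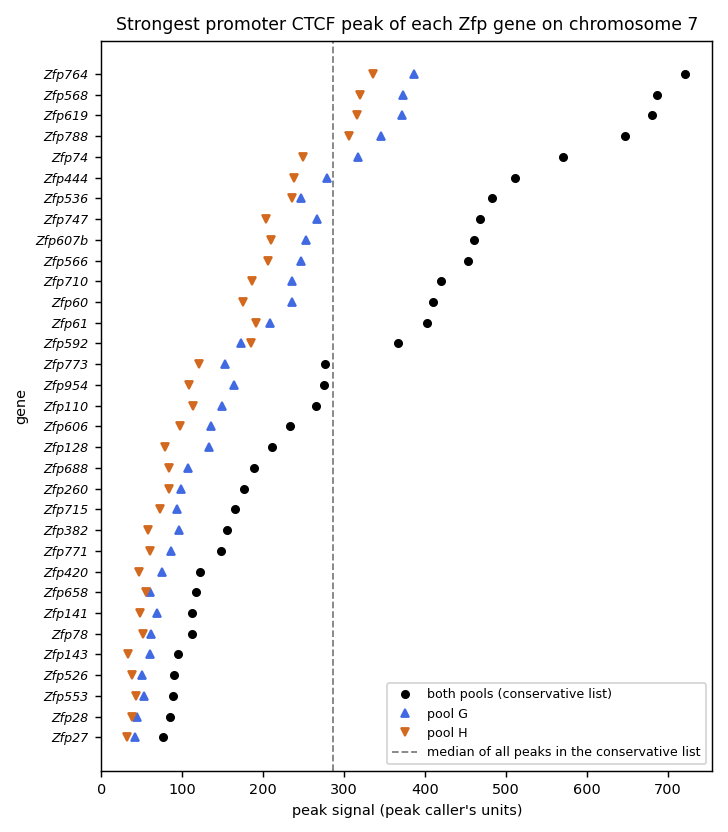
Signal of the strongest promoter summit (x axis, peak caller's units) for each of the 33 genes with one, in the list of both pools (circles) and in pool G and pool H (triangles). The dashed line is the median of all peaks in the list, 285.9. Values run from 76.1 at Zfp27 to 721.0 at Zfp764, and pool G exceeds pool H at every gene except Zfp592.

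Most promoter summits sat close to a start site. The 33 genes held 42 promoter summits, 26 genes with 1, 5 genes with 2, and Zfp710 and Zfp592 with more. The median distance to the gene's nearest TSS was 142 bp, and 18 of the 42 lay upstream of it. Just inside the 1 kb limit was Zfp566, with a summit at -922 bp. Just outside it were Zfp473 (1118 bp from its nearest TSS), Zfp82 (1393 bp), Zfp383 (1743 bp), Zfp524 (1774 bp) and Zfp541 (1866 bp). The summit next to Zfp473, a gene with a role in histone pre-mRNA processing, was among the strongest of the family at 696.9 (383.2 in pool G, 313.1 in pool H).

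Of the 33 promoters, 29 also had a peak in the separate list of each pool. The exceptions, missing from one pool's list or from both, were Zfp28, Zfp526, Zfp27 and Zfp141. Of the 59 genes without a promoter summit, 49 had a candidate in the authors' ranked list below the threshold, with signal from 13.5 to 88.7 and a median of 32.9. The remaining 10 had no candidate of any rank: Zfp579, Zfp772, Zfp541, Zfp296, Zfp93, Zfp626, Zfp82, Zfp977, Zfp511 and Zfp941. Of the 59, 9 had a promoter peak in the second thresholded list of both pools: Zfp784, Zfp418, Zfp109, Zfp575, Zfp574, Zfp84, Zfp975, Zfp689 and Zfp629.

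Large finger number did not go with a summit in every case. Among genes with no summit at all, Zfp646 had the most C2H2 patterns, 27, followed by Zfp974 and Zfp780b with 21 each, Zfp865 with 20 and Zfp629 with 19. Their best promoter candidates had signal of 47.4, 28.5, 32.1, 31.1 and 70.7 respectively, all under the 76.1 of Zfp27. The median number of patterns was 11 in genes with a promoter summit and 12 in those without. Genes with the KRAB pattern had a promoter summit in 22 of 55 cases (40.0%, 27.0 to 54.1%) and genes without it in 11 of 37 (29.7%, 15.9 to 47.0%), and both intervals hold the 34.6% of all genes. A body summit was found in 7 of the 55 (12.7%, 5.27 to 24.5%) and 13 of the 37 (35.1%, 20.2 to 52.5%), beside 41.2% of all genes. The intervals of genes with and without the pattern overlapped in both places, and the differences were not tested. Both classes depend on the pattern used. Genes with the KRAB pattern had a median length of 14892 bp and a mean of 16.6 kb, against 10926 bp and 23.1 kb for those without. Per 100 kb of gene length, genes with the pattern held 0.984 body summits (9 in all) and those without it 2.34 (20 in all).

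Shares in CpG-poor and CpG-rich promoters lay closer together in these genes than over all genes, a difference that was not tested. CpG ratio is the observed over the expected number of CpG dinucleotides in 500 bp on either side of the gene's annotated 5′ end, whichever TSS carried the summit, and promoters were divided at 0.6. Of the 42 CpG-poor promoters 14 (33.3%) had a summit, and of the 50 CpG-rich promoters 19 (38.0%). Over all genes the shares were 20.2% of 11855 and 51.4% of 10083, and for Zfp genes elsewhere 24.7% of 150 and 47.4% of 152. The median CpG ratio was 0.652 in genes with a promoter summit and 0.622 in those without, against 0.714 and 0.363 over all genes. Examples of CpG-poor promoters with a strong summit inside that window were Zfp764 (ratio 0.522) and Zfp788 (0.498).

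**Figure D3:**
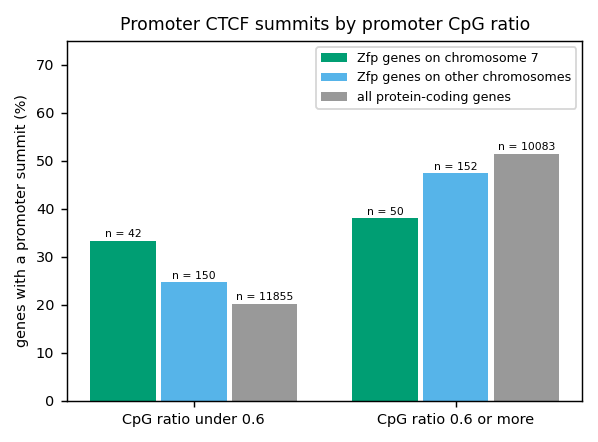
Percent of genes with a promoter summit (y axis) by CpG ratio of the promoter, for Zfp genes on chromosome 7, Zfp genes on other chromosomes and all protein-coding genes. The number of genes stands above each bar. The 2 bars of the chromosome 7 genes (33.3 and 38.0%) lie closer together than those of all genes (20.2 and 51.4%).

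The CTCF core was less frequent at these promoters than in the list as a whole. Of the 42 promoter summits 13 (31.0%) had a core with up to 1 mismatch, beside 38.9% of all promoter summits and 66.0% of all summits in the list. Counted per gene, 13 of 33 genes (39.4%) had a core at a promoter summit, against 44.0% over all genes and 38.5% for Zfp genes elsewhere. Among the 10 strongest promoters, Zfp619, Zfp74, Zfp607b and Zfp566 had one at their strongest summit, and Zfp764, Zfp568, Zfp788, Zfp444, Zfp536 and Zfp747 did not. Median signal was 307.5 for promoter summits with a core and 177.0 for those without, in the same order as over all promoter summits (413.7 and 183.5). The cores lay at a median of 12.5 bp from the summit.

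Copies of the core without a summit were common. A core with up to 1 mismatch occurred within 1 kb of a TSS in 55 of the 92 genes (59.8%), beside 58.6% of all protein-coding genes. These held 95 copies, of which 14 (14.7%) had a summit within 100 bp, the same share as over all genes, 14.7%. Of the 59 genes without a promoter summit, 33 had such a copy, and so did 22 of the 33 with one.

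In gene bodies the core was found at 21 of 29 summits (72.4%), beside 70.9% of all body summits. The signal of the body summits was 181.7 (70.0 to 716.8), against 267.1 over all body summits. The difference was larger among those with a core, with a median of 183.6 against 318.4, than among those without, 166.6 against 184.8. Of the 21 cores, 10 were wholly soft-masked, where the share over all body cores was 35.8%.

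The strongest body summit was in the last exon of Zfp444 (716.8), described below, and the next was the intronic summit of Zfp473. The third was in an intron of Zfp143, with 680.5 (373.5 in pool G, 316.5 in pool H) and the core shown above. That site had a far higher signal than the promoter of the same gene. An intron of Zfp710 had 626.4 (349.1 in pool G, 276.1 in pool H), also with an exact core, and an intron of Zfp568 had 560.9 (311.9 and 248.5) with none. Each of these was above the list median of 285.9.

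A single word made up most of the exact cores. Exact cores were present at 17 of the 71 summits at these genes (23.9%), against 33.0% of all summits in the list. At these genes they were 5 of the 42 promoter summits and 12 of the 29 body summits. Over the list the share was 14.3% at promoters and 37.1% in gene bodies. Promoter summits made up 9229 of the 54309 summits in the list. Of the 17 exact cores, 11 (64.7%) were the word CCAGAAGAGGGC. The word made up 37.7% of exact cores in the whole list and 42.9% in all gene bodies, a difference that rests on few sites and was not tested. All 11 lay in soft-masked sequence. Of these, 3 were promoter summits (Zfp444, Zfp27 and Zfp566) and 8 were body summits (Zfp78, Zfp536, Zfp619, Zfp719, Zfp710, Zfp143, Zfp771 and Zfp668). A short interspersed repeat of rodents, B2, is known to carry CTCF sites, but the repeat families of these copies were not analysed here.

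The median signal of the summits on this word was 183.6, from 70.0 in an intron of Zfp619 to 500.5 in an intron of Zfp771. Those of Zfp771, Zfp566 and Zfp444 were above the list median of 285.9 and the other 8 below it. The other 6 exact cores had a median of 598.5, from 72.1 in an intron of Zfp128 to 716.8 in Zfp444. The same order held in the whole list, with 162.8 for the word and 539.0 for the other exact cores. The word occurred 50566 times in the genome with 6796 copies occupied (13.4%), and 99 times between the start and the end of these genes, promoter-proximal sequence included, with 10 occupied (10.1%).

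The last-exon summits lay mostly past the fingers. Zfp444 held 2 of the 6. The stronger, 716.8 (385.5 in pool G, 334.7 in pool H), had an exact core and lay 1687 bp past the last finger. Zfp574 had 417.9 (233.0 in pool G, 189.8 in pool H), 588 bp past its last finger. Zfp568 had 173.9 (98.2 and 73.9 in pools G and H), 1959 bp past it, and Zfp78 had 137.6 (87.7 and 49.0), 2151 bp past it. These 4 summits had a core and lay 3′ of the longest coding sequence, outside the last exon of the transcript that carries it. They were in the last exon of another protein-coding transcript, and whether they lay in its 3′ UTR was not determined.

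The other 2 lay in coding sequence and had no core. Zfp524 had 136.2 (71.0 in pool G, 62.9 in pool H), in coding sequence outside the stretch of fingers. The weaker summit of Zfp444 had 72.0, with 39.7 in pool G and 31.1 in pool H. It was the only summit inside a finger array, the stretch from the first to the last C2H2 pattern within a coding exon. The median of the 6 last-exon summits was 155.7, against 341.7 over all last-exon summits.

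**Figure D4:**
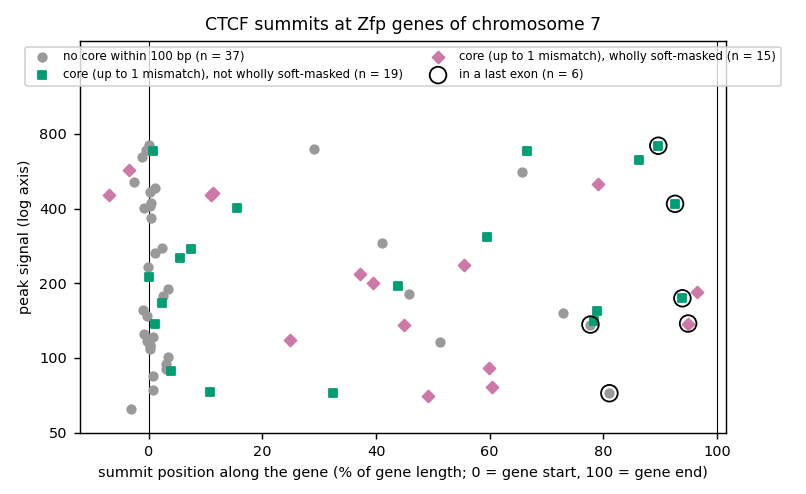
Signal (y axis, log scale, peak caller's units) of the 71 summits at the 92 genes by position along the gene (x axis, percent of gene length). Colour and shape mark summits without a core, with a core and with a core wholly in soft-masked sequence, and rings mark the 6 last-exon summits. Summits without a core gather at the gene start, and those in the body mostly have one (21 of 29).

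Finger arrays covered 103.8 kb in these genes and held 1 summit, or 0.963 per 100 kb, beside 1.99 per 100 kb over the genome and 2.38 over chromosome 7. A single summit in a stretch of this length does not set the arrays apart from either rate. Over all genes with 3 or more C2H2 patterns they covered 606.7 kb and held 8 summits, or 1.32 per 100 kb. The arrays were not poor in copies of the core: 22.1 per 100 kb, against 24.9 in the last exons of the same 92 genes. Of the 23 copies in the arrays of the 92 genes, which lay in 19 genes, none was exact and 0 had a summit within 100 bp. This allows a share of up to about 13.0% by the rule of 3 (3 divided by 23), which is not an exact interval like those above. Over all genes with 3 or more patterns, 4 of 91 copies (4.40%) had one. The genes of a cluster are related by duplication, so these copies are not independent sites.

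One altered form of the core recurred in the arrays, mostly but not only in some genes of one cluster. Positions are counted from 1 at the 5′ end of the core. Of the 23 copies, 11 lay in the run of genes from Zfp180 to Zfp526, and 7 of these carried the substitution C12T, the core's base first. Among them the word CCACCAGAGGGT occurred 6 times, in Zfp235, Zfp114, Zfp111, Zfp61 and, at 2 places, Zfp93. Zfp108 carried C12T with another base within the core. Outside this run Zfp536 and Zfp473 each had a copy with C12T. Over the genome 61 of the 465 copies of CCACCAGAGGGT (13.1%) were occupied, and with 6 copies in these genes, 0 occupied, the number is too small for a comparison.

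Of the 92 genes, 80 lay in 9 clusters, runs of 4 to 15 genes with gaps of at most 500 kb. The largest, 15 genes from Zfp84 to Zfp146, had a promoter summit at 7, among them Zfp568, Zfp74, Zfp566 and Zfp260. The 10 genes from Zfp553 to Zfp646 had one at 5, including Zfp764 and Zfp747. The 14 genes from Zfp180 to Zfp526 had one at 2 and the 6 genes from Zfp628 to Zfp580 at 0. Over all protein-coding genes the share was 34.6%, and counts in runs this short were not tested against it. They also depend on the list: in the second list of both pools Zfp109, Zfp575 and Zfp574 of the former run and Zfp784 of the latter had a promoter peak. Zfp524 of the latter had one in the list of pool G. The 9 genes from Zfp607b to Zfp36 had one at 2, and no summit in a gene body. Promoter counts in the other clusters were 3 of 6 (Zfp787 to Zfp28), 2 of 4 (Zfp954 to Zfp772), 3 of 7 (Zfp551 to Zfp446) and 3 of 9 (Zfp141 to Zfp819).

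Few promoter summits did not mean few summits in the surrounding sequence. The Zfp180 to Zfp526 run had 63 summits in all, or 55.0 per Mb, and the Zfp628 to Zfp580 run 79.4 per Mb. The average was 23.8 per Mb on chromosome 7 and 19.9 per Mb over the genome. The clusters with the lowest densities were Zfp141 to Zfp819, with 16.6 per Mb, and Zfp551 to Zfp446, with 21.0 per Mb.

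**Figure D5:**
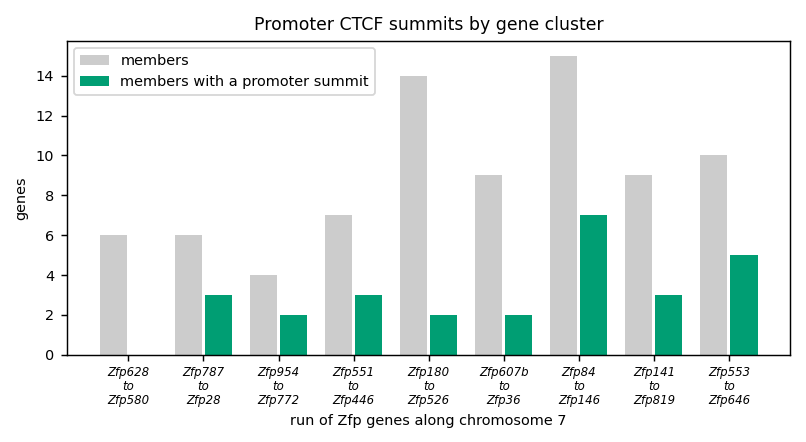
Number of Zfp genes (grey) and of those with a promoter summit (green) in each of the 9 clusters, in order along chromosome 7 (y axis, genes). The share runs from 0 of 6 in the Zfp628 to Zfp580 cluster to 5 of 10 in the Zfp553 to Zfp646 cluster. The latter share is also reached by 3 of 6 from Zfp787 to Zfp28 and 2 of 4 from Zfp954 to Zfp772. Over all protein-coding genes 34.6% had a promoter summit.

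The genes whose products work with KRAB zinc finger proteins were read in the same list. Of 16 such genes, 8 had a promoter summit, 14 (87.5%) a summit in the gene body and 2 (12.5%) in a last exon, beside 34.6%, 41.2% and 6.6% of all protein-coding genes. The median length of the 16 genes was 32800 bp against 17425 bp over all genes, and their mean length 43.4 kb against 49.0 kb. Per 100 kb of gene length they held 3.74 body summits (26 in all), against 2.30 over all genes. The exact interval of their body share is wide, 61.7 to 98.4%, and the differences were not tested. Atf7ip, a partner of the H3K9 methyltransferase SETDB1, had 371.6 at its promoter, and Dnmt1, the maintenance DNA methyltransferase, had 345.1. Trim28, the shared co-repressor and itself a gene of chromosome 7, had 263.9. Values were lower at Hdac1, a histone deacetylase (196.8), Setdb1 (92.1), the histone chaperone gene Daxx (84.6), Smarcad1 (83.8) and Uhrf1 (80.3). No promoter summit was found at Cbx1, Cbx3 and Cbx5, which encode the HP1 proteins, nor at Atrx, Morc3, Hdac2, Chd3 and Chd4.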

How the data were processed

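CTCF ChIP-seq peak lists from 2 pools (G and H, each of 2 technical libraries) were analysed. Coordinates are on mm10, per the labels, and which list came from which pool was taken from the deposited readme texts. The authors deposited a signal for each peak, the caller's value in no stated unit, and a score, a scaled irreproducible discovery rate (IDR) on which 540 means 0.05 and 830 means 0.01. Aligner and caller were not given in the sources used here. The alignment of the control was left out. The lists carry no counts, so signal was compared within a list, and nothing was tested across samples: shares stand beside the same share over all genes.

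Genes, TSSs and exons were those of GENCODE M21, and sequence that of GRCm38.p6 (RefSeq), with Python 3.11.15, pandas 2.3.3, numpy 2.4.6, scipy 1.17.1, pysam 0.24.0 and Biopython 1.88. Promoters were within 1 kb of any TSS. A last exon was the 3′-most exon of any protein-coding transcript. C2H2 and KRAB patterns were searched in the translated longest coding sequence, and the KRAB and C2H2 patterns, the finger arrays, the CpG division and the single words were chosen during the work. The members and lists were chosen with earlier results of these data known. Named genes were those with the 10 strongest and 5 weakest promoter summits, taking the strongest of each gene, and with every last-exon summit. Also named were those with the 5 strongest body summits, the 5 genes with most C2H2 patterns and no summit, and the 5 nearest outside 1 kb. The 16 KRAB machinery genes were named too, and others were named after their values were seen. Scripts were tested on simulated data.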

Additional observations from a re-analysis of the deposited data

How the results depend on the processing

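Of 34 alternative values, 28 stayed within 1.5 times the count, or within the interval of the value, and 6 moved. In the separate lists of the pools the median promoter signal was 103 to 136, on scales that differ from that of both pools, while 34 to 35 genes had a promoter summit, 17 to 19 a body summit and 4 to 5 a last-exon summit, and 43.9 to 44.9% of summits had a core. Counting any summit in the gene body, including those within 1 kb of a TSS, gave 37 genes. Only 2 genes, Zfp444 and Zfp524, had a summit in the last exon of the transcript with the longest coding sequence. An exact core was found at 23.9% of summits, against 33.0% of all summits in the list, and a core with up to 2 mismatches at 80.3%. Exact cores were rarer at promoters, which held 42 of the 71 summits at these genes and 9229 of the 54309 in the list. Promoter counts were 41 in the second list, 32 at an IDR of 0.01, 29 within 500 bp and 38 within 2 kb. They were 29 with 1 TSS per gene and 34 by peak overlap. Apart from the exact core, the alternative values were computed for the 92 genes only. No share over all genes at the same setting stands beside them, and the shares given above belong to the main setting. No paired analysis was possible because no result comes from a test between groups. Read placement among near-identical copies and the unknown depth limit what the absence of a peak shows.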

Other observations

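Zinc finger genes of chromosome 7 under other names were counted as well. Among 36 genes outside the Zfp series with 3 or more C2H2 patterns, 8 (22.2%, 95% exact interval 10.1 to 39.2%) had a promoter summit, 7 (19.4%, 8.19 to 36.0%) a body summit and 1 a last-exon summit. The median of their strongest promoter summits was 409.8, and 4 of the 8 had a core there. A core with up to 1 mismatch lay within 1 kb of a TSS in 26 of the 36 (72.2%), and 4 of those 45 copies (8.89%) had a summit. Over all 640 genes with 3 or more C2H2 patterns, 36.4% had a promoter summit (32.7 to 40.3%), 29.1% a body summit and 4.69% a last-exon summit.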
